A study of Mus musculus with 15 samples.

Results

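All 9 tumour arrays of the study were set against its 6 arrays of sorted cerebellar cells, to find the genes that every tumour group held above or below both sorted populations. The arrays were chosen by their labelled source, and together they were 15 of the 15 arrays in the series. RNA was hybridised to 1-colour Affymetrix HT_MG-430_PM mouse arrays, with 1 array for each sample and 3 samples in each of 5 groups. The 3 tumour groups and the 2 sorted groups were each weighted equally, so that Myc tumours, which fill 2 of the 3 tumour groups, count for more than Shh tumours in any average.

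The Myc primary tumours had been grown in the cerebral cortex of nude mice from injected cerebellar cells of Cdkn2c-/-, Trp53-/-, Atoh1-GFP mice that were infected with Myc. The Shh tumours were medulloblastomas that arose spontaneously in Cdkn2c-/-; Trp53Fl/Fl; Nestin-Cre mice, in which the Cre transgene is driven by the Nestin promoter of neural progenitors. The Myc secondary tumours came from sphere cells, cultured from primary Myc tumours and transplanted orthotopically. Cells with and without the GFP reporter, the GFP-positive and GFP-negative groups, had been sorted by fluorescence out of cerebella of postnatal day 6 Cdkn2c-/-, Trp53-/-, Atoh1-GFP mice. All 5 groups therefore lacked Cdkn2c and carried a deletion of Trp53, in every cell or through Cre. The tumour cells had been dissociated and purified on a Percoll gradient before RNA extraction, a step not described for the sorted cells. The labels of the 6 sorted samples call them spontaneous tumour, while the study's design text describes sorted cerebellar cells at postnatal day 6; the design text was followed. Host tissue, age, culture and cell isolation differ between tumours and sorted cells, and their effects cannot be told apart from that of being a tumour.

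Medulloblastoma is a malignant tumour of the cerebellum, and its Sonic hedgehog form arises from granule neuron progenitors, the dividing cells that Atoh1 specifies and that Sonic hedgehog drives. The second germinal zone of the cerebellum, the ventricular zone, gives rise to the inhibitory neurons under the transcription factor Ptf1a. Myc and Mycn are transcription factors that raise ribosome production, nucleotide supply and metabolism in growing cells. Cdkn2c encodes a Cdk inhibitor, and Trp53 encodes the p53 protein that halts or kills damaged cells.

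Values are the authors' log2 signals. A level of 4.77, under which 95% of readings of 23 nonspecific control probe sets fell, served as background, and a lower value was read as not above background. Array medians over all probe sets ran from 4.64 to 4.89, and the genes above background made up 55.2% to 61.0% of 17097 genes on each array. The interquartile range was 3.73 log2 on GFP-negative 3 and wider, 4.21 to 4.57, on each of the others. The labels do not say that samples of a group came from separate animals, so the p-values cover only variation among the samples at hand, and 3 arrays a group limit the precision. Cdkn2c read below background on all 15 arrays (3.31 to 4.12), and no probe set was listed for Trp53 alone. Atoh1 averaged 8.92 ± 0.39 in GFP-positive and 4.09 ± 0.42 in GFP-negative cells (SD, n = 3 each), the order the sort should give.

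Averaged over the groups, tumours differed from sorted cells at 5807 of 17097 genes (34%, limma, Benjamini-Hochberg adjusted p below 0.05). Of these, 3211 rose (18.8% of genes) and 2596 fell (15.2%), with 986 and 987 changed by 2-fold or more. The median difference over all genes was 0.02 log2. These averages were seldom matched by a call in every tumour group against both sorted populations. Counted without a test, tumour groups lay above sorted populations in all 6 pairs at 3044 genes and below in all 6 at 1602. A stricter call asked that all 6 differences, of 3 tumour groups from 2 sorted populations, had one sign and that the largest of their 6 p-values passed after adjustment. It was met by 35 genes that were higher (0.205%) and 22 that were lower (0.129%) in tumours. On all 57, the 9 tumour arrays did not overlap the 6 sorted-cell arrays. Without any test, 780 genes (4.56%) had all tumour arrays above all sorted-cell arrays, and 218 (1.28%) had them all below.

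**Figure D1:**
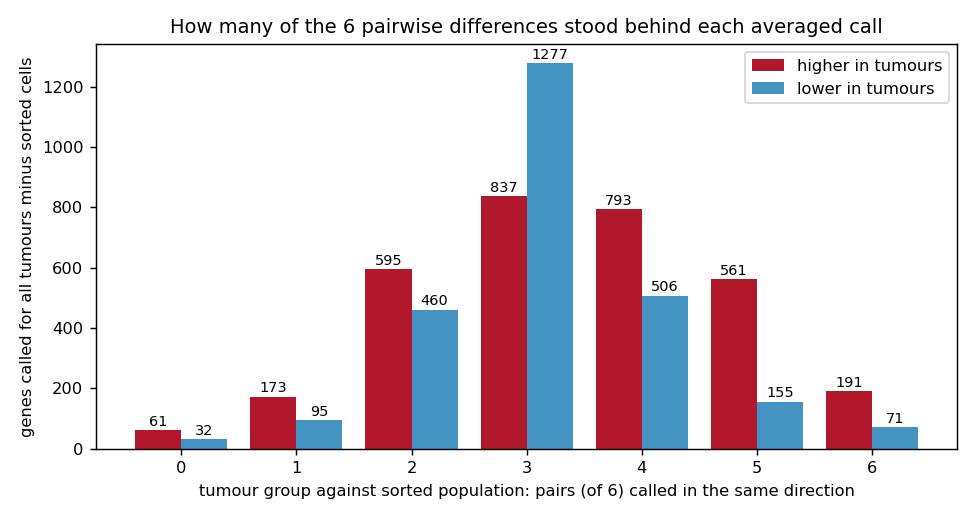
Genes called in the average of tumours minus sorted cells (y axis, number of genes), by how many of the 6 pairwise differences between a tumour group and a sorted population were called in the same direction (x axis). Red bars are genes higher in tumours and blue bars genes lower in tumours. All 6 pairs were called for 191 genes higher and 71 genes lower, whereas 3 pairs was the most frequent number, with 837 and 1277 genes.

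The pair of Shh tumours and GFP-positive cells set the limit. It gave the fewest calls of the 6 pairs, with 4.63% of genes higher and 2.92% lower in Shh tumours. Against GFP-positive cells, 14.5% of genes were higher and 10.3% lower in Myc primary tumours, and 13.5% were higher and 11.8% lower in Myc secondary tumours. Against GFP-negative cells, the shares were 19.1% higher and 14.7% lower for Myc primary tumours, 16% and 13.1% for Shh tumours, and 19.4% and 18% for Myc secondary tumours. The 6 pairs share their groups and are not independent. Of the 35 shared rises, 24 had their smallest difference between Shh tumours and GFP-positive cells and 7 between Shh tumours and GFP-negative cells. In the other direction the smallest difference was spread over all 6 pairs, with 1 to 6 of the 22 falls each. Among genes called in the average, 140 of those that rose were called lower in at least 1 pair, and 279 of those that fell were called higher in at least 1 pair.

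The counts of shared genes moved with single arrays. Leaving out 1 array at a time gave 7 to 73 shared rises and 13 to 29 shared falls. The number of rises was 7, 14 and 13 without Shh 1, 2 and 3, and 10, 12 and 10 without GFP-positive 1, 2 and 3. It was 54, 22 and 23 without Myc secondary 1, 2 and 3, and 73 without GFP-negative 3. The number of falls was 13 without Shh 1 and 14 without Shh 2. The average over groups called 655 rises and 192 falls when the group was treated as a random block, and none when the 5 group means were the units (1358 and 485 at unadjusted p below 0.05, limma). With the runs of title numbers as a term, the shared call was kept by 0 of the 35 rises and 7 of the 22 falls. In the average, all 57 shared genes kept their direction and their call within the earlier and within the later run of sample title numbers, and with the random block. These 57 were picked by the shared call from the same arrays, so their keeping an averaged call is no separate support. The earlier run held the Myc primary and Shh tumours with GFP-negative 1 and 2, and the later run held all other arrays. Neither run thus held both Shh tumours and GFP-positive cells, so these calls do not cover the pair that set the limit. Of 108 named genes, 50 lost their averaged call with the random block and 31 with no group terms.

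Asns, asparagine synthetase, led the shared rises. Its lowest, median and highest values were 10.47, 11.19 and 11.61 in the 9 tumours, against 6.88, 7.94 and 8.47 in the 6 sorted-cell arrays. No tumour array came near the range of the sorted cells, and the Shh tumours were the lowest of the tumours. Asns averaged 11.24 ± 0.14 in Myc primary, 10.53 ± 0.05 in Shh and 11.44 ± 0.22 in Myc secondary tumours, against 8.18 ± 0.25 in GFP-positive and 7.42 ± 0.49 in GFP-negative cells (SD, n = 3 each). It rose by 3.27 ± 0.14 (standard error of the fit, adjusted p = 1.1e-08), and the smallest of its 6 differences, Shh tumours over GFP-positive cells, was 2.35 (shared adjusted p = 0.00026). The difference was 3.19 within the earlier and 3.90 within the later run of title numbers.

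Eif4ebp1, Atf5, Lap3 and Deptor were further leading rises. Eif4ebp1, which holds back cap-dependent translation until mTOR phosphorylates it, read 9.06, 10.41 and 11.13 (lowest, median and highest) in tumours, against 5.82, 6.47 and 7.67 in sorted cells. It rose by 3.57 ± 0.20, with a smallest difference of 2.25; its second probe set, near background, differed by 0.32 without a call. Atf5, a transcription factor of the same stress response as Atf4, read 7.10, 8.5 and 8.96 in tumours and 5.69, 6.10 and 6.34 in sorted cells. Atf5 rose by 2.23 ± 0.22, and its level in Shh tumours was not called different from that in Myc tumours. Lap3, an aminopeptidase that frees amino acids from peptides, rose by 2.07 ± 0.16, and Deptor, a subunit that restrains mTOR, rose by 2.04 ± 0.11. Neither of the last 2 genes had a tumour array within the range of the sorted cells.

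The promoters of the amino acid gene Asns and of 3 other shared rises are shown because they hold a match to 1 of 2 short motifs: TGATGNAA, a form of the element bound by C/EBP-ATF dimers, or CACGTG, the E-box bound by Myc with Max. Each is the RefSeq window from 250 bases before to 50 after the gene's start, build GRCm38.p6, written 5′ to 3′ on the gene's strand, with the match on either strand in capitals.
Asns, chr6:7693160-7693459, minus strand, match starting 23 bases before the gene's start: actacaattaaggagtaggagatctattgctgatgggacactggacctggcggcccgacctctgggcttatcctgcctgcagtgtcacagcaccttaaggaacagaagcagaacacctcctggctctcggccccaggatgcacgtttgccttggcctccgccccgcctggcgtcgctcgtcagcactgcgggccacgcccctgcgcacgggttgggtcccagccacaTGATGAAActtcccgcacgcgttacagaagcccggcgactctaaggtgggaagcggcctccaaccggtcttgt
Nop14, chr5:34660099-34660398, minus strand: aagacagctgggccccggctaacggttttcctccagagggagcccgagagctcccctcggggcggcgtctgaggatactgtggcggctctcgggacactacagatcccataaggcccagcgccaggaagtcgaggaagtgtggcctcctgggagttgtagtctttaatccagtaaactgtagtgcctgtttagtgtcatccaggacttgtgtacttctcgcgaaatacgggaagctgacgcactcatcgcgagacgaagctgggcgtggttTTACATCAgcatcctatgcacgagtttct
Utp4, chr8:106893390-106893689, plus strand: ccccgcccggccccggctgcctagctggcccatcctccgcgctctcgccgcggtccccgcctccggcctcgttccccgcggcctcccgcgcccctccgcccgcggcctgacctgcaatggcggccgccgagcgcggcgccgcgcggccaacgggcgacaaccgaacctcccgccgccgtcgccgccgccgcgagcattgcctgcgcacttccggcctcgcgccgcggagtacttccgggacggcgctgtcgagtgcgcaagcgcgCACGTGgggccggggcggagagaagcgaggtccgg
Lap3, chr5:45493124-45493423, plus strand: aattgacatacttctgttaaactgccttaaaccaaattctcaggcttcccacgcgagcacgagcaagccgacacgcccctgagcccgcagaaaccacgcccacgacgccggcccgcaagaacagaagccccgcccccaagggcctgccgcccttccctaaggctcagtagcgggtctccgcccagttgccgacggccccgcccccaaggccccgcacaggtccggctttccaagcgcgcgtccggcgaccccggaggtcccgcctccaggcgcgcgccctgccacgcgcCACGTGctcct
Windows were matched for 25 of the 35 shared rises. TGATGNAA stood in 2 of the 25 (8%), against 3.27% of 13605 measured genes with a window, and CACGTG stood in 3 of the 25 (12%), against 10.2%. Of the 22 shared falls 15 had a window, and none of these held either motif. The end of CACGTG and the start of TGATGNAA share letters, so matches to both could overlap; a match describes the window only.

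A list of 30 genes of the amino acid response and of serine and glycine synthesis was drawn up after the leading genes were seen, so its counts describe and support nothing. Of 28 measured members, 20 rose, 1 fell and 7 were not called, with a median difference of 1.06 log2. Against GFP-negative cells 16, 12 and 14 were called higher and 3, 3 and 7 lower in Myc primary, Shh and Myc secondary tumours. Against GFP-positive cells 19, 18 and 18 were called higher and 0, 0 and 1 lower. Slc7a3, a transporter of cationic amino acids, read 6.80, 7.47 and 9.0 in tumours, against 3.91, 4.16 and 5.51 in sorted cells. It rose by 3.13 ± 0.29 and did not overlap, but missed the shared call (adjusted p = 0.063). Slc1a5, a glutamine transporter, rose by 2.16 ± 0.32, Shmt2, the mitochondrial enzyme that makes glycine from serine, by 2.01 ± 0.14, and Chac1, which degrades glutathione, by 1.83 ± 0.45. Psat1, of serine synthesis, rose by 0.94 ± 0.16, although its arrays overlapped. The transcription factors Atf4 and Ddit3 of the response were not called. Atf4 read 11.05 to 12.18 in tumours and 11.21 to 11.91 in sorted cells, and Ddit3 7.70 to 9.74 and 8.19 to 9.41. Of 12 measured cytosolic aminoacyl-tRNA synthetases, another list made after the leading genes were seen, 11 rose, with a median of 0.91.

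**Figure D2:**
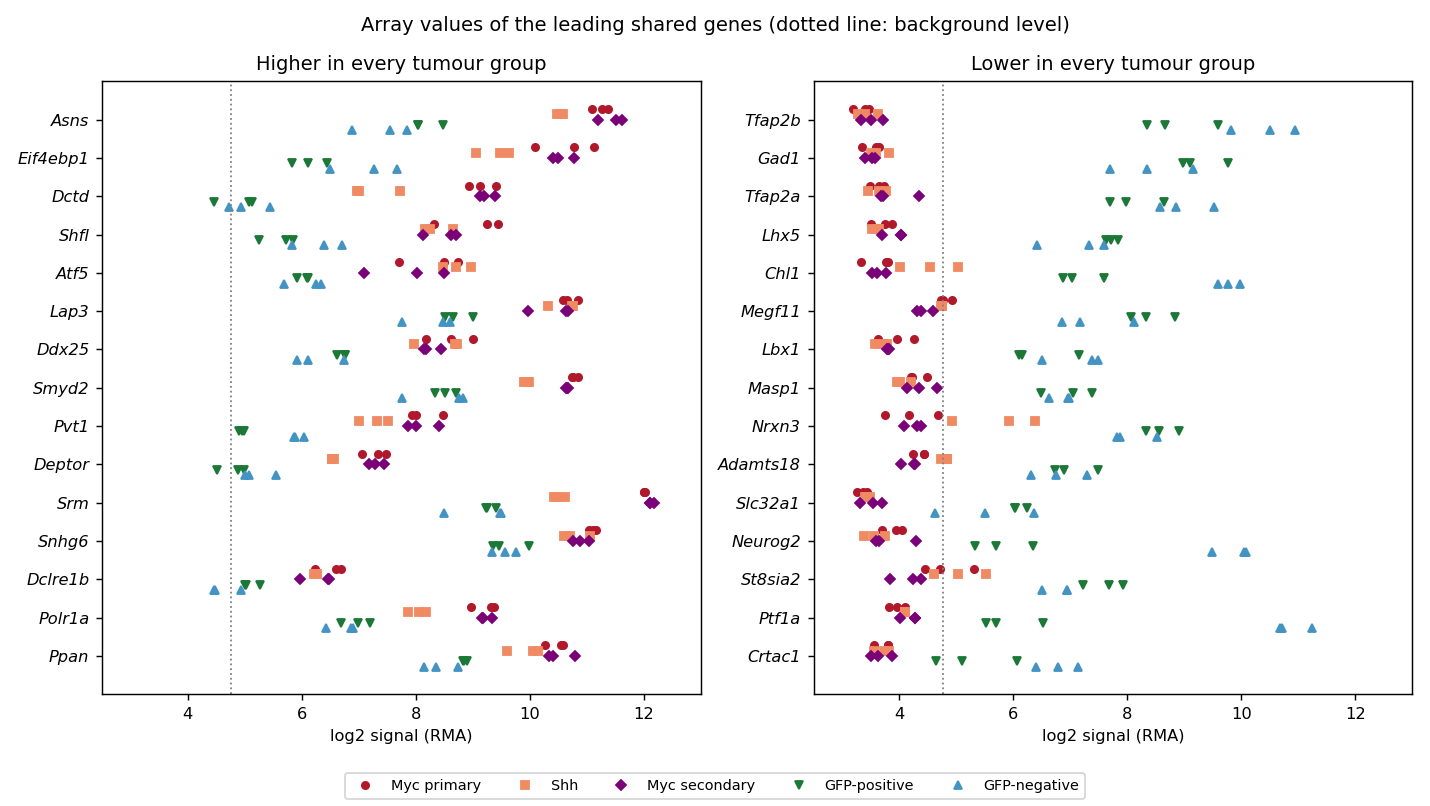
Log2 signal (x axis) of the 15 leading shared rises (left) and 15 leading shared falls (right), 1 marker per array, with tumour groups drawn above the sorted groups in each row and the dotted line at the background of 4.77. Asns lies between 10.47 and 11.61 in tumours and between 6.88 and 8.47 in sorted cells, and Tfap2b between 3.19 and 3.71 in tumours and between 8.34 and 10.94 in sorted cells.

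Enzymes of nucleotide and polyamine synthesis were also among the shared rises. Dctd, dCMP deaminase, read 6.97, 9.12 and 9.41 in tumours, against 4.46, 5.01 and 5.45 in sorted cells, where it was near background. It rose by 3.58 ± 0.16, the most of any shared gene, and stood 1.96 lower in Shh than in Myc tumours. Srm, spermidine synthase, read 10.42 to 12.18 in tumours and 8.5 to 9.49 in sorted cells, and rose by 2.32 ± 0.13. Ctps, which makes CTP, rose by 1.20 ± 0.09, Prps1, which makes phosphoribosyl pyrophosphate, by 1.85 ± 0.11, and Cad, which opens pyrimidine synthesis, by 1.77 ± 0.17. Of these 3, only Ctps had the shared call (adjusted p = 0.043). All 19 measured genes of a nucleotide synthesis list rose (median 1.20), again a list made after the leading genes were seen.

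Ribosome production rose almost as a whole list. Of 21 measured ribosome biogenesis genes, 20 rose, none fell and 1, Ncl, was not called; their median was 1.53 log2, beside 0.02 over all genes and 18.8% of all genes rising. On 14 of the 21 all tumour arrays lay above all sorted-cell arrays, beside 4.56% of all genes. The shared call was met by 4, beside 0.205% of all genes. Nop56, a core protein of box C/D nucleolar particles, read 11.15, 11.78 and 11.96 in tumours, against 9.68, 10.14 and 10.47 in sorted cells, and rose by 1.54 ± 0.08. Nhp2, of the H/ACA particles that guide pseudouridylation, rose by 1.53 ± 0.08. The leading shared rises also held Polr1a, the largest subunit of RNA polymerase I, at 1.98 ± 0.11, and Ppan, a large-subunit assembly factor, at 1.67 ± 0.12. Utp4 and Nop14, both of small-subunit processing, rose by 2.18 ± 0.11 and 1.92 ± 0.10.

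The rise of this list was of unlike size in the pairs. Its median difference from GFP-positive cells was 1.67 in Myc primary, 0.63 in Shh and 1.80 in Myc secondary tumours, and from GFP-negative cells it was 1.99, 0.86 and 2.19. In Shh tumours over GFP-positive cells 8 of 21 members were called higher, and in the other 5 pairs 16 to 21 were. Of mitochondrial import, folding and translation genes, all 20 measured members of a list made after the leading genes were seen rose, with a median of 1.18, and 10 of 20 were called in Shh tumours over GFP-positive cells. Hspa9, the mitochondrial Hsp70 chaperone, rose by 1.55 ± 0.09, and Chchd4, which folds imported proteins of the intermembrane space, by 2.30 ± 0.08. Mrpl12, of the large mitochondrial ribosomal subunit, rose by 1.37 ± 0.08.

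Several shared rises lay outside these groups. Pvt1, a long noncoding RNA encoded next to Myc, read 7.0, 7.93 and 8.47 in tumours, against 4.89, 5.42 and 6.04 in sorted cells. It rose by 2.40 ± 0.12, and all 4 of its probe sets were higher. Shfl, an inhibitor of viral frameshifting, rose by 2.66 ± 0.20, Ddx25, an RNA helicase best known from testis, by 1.95 ± 0.17, and Smyd2, a lysine methyltransferase, by 1.97 ± 0.14. Dclre1b, a nuclease that protects telomeres, rose by 1.49 ± 0.12, and Snhg6, a noncoding host RNA of a small nucleolar RNA, by 1.35 ± 0.12. Of the 35 shared rises, 28 also differed between Shh and the mean of the Myc groups, all 28 lower in Shh tumours, where 23.8% of all genes differed. Of the 22 shared falls 3 did, all higher in Shh tumours.

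Myc itself was not among the shared rises. Its probe set read 5.21, 8.88 and 10.10 in tumours, against 6.68, 7.97 and 8.70 in sorted cells, with a difference of 0.59 ± 0.48 (adjusted p = 0.39). Myc primary 2 was the lowest tumour array at 5.21, and the 3 GFP-negative arrays, at 8.55 to 8.70, lay within the tumour range. Whether the Myc probe set also reads the Myc introduced by infection was not tested, so these values do not give the total Myc of the Myc tumours. Mycn fell by 3.34 ± 0.13 on its brightest probe set, at 4.54 ± 0.42 in Myc primary, 10.70 ± 0.05 in Shh and 4.85 ± 0.26 in Myc secondary tumours, against 10.62 ± 0.20 in GFP-positive and 9.46 ± 0.19 in GFP-negative cells. Its averaged fall thus stood in the Myc tumours, and another of its 3 probe sets had the opposite sign. Mycl, the third member of the family, fell by 0.78 ± 0.23 and overlapped.

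**Figure D3:**
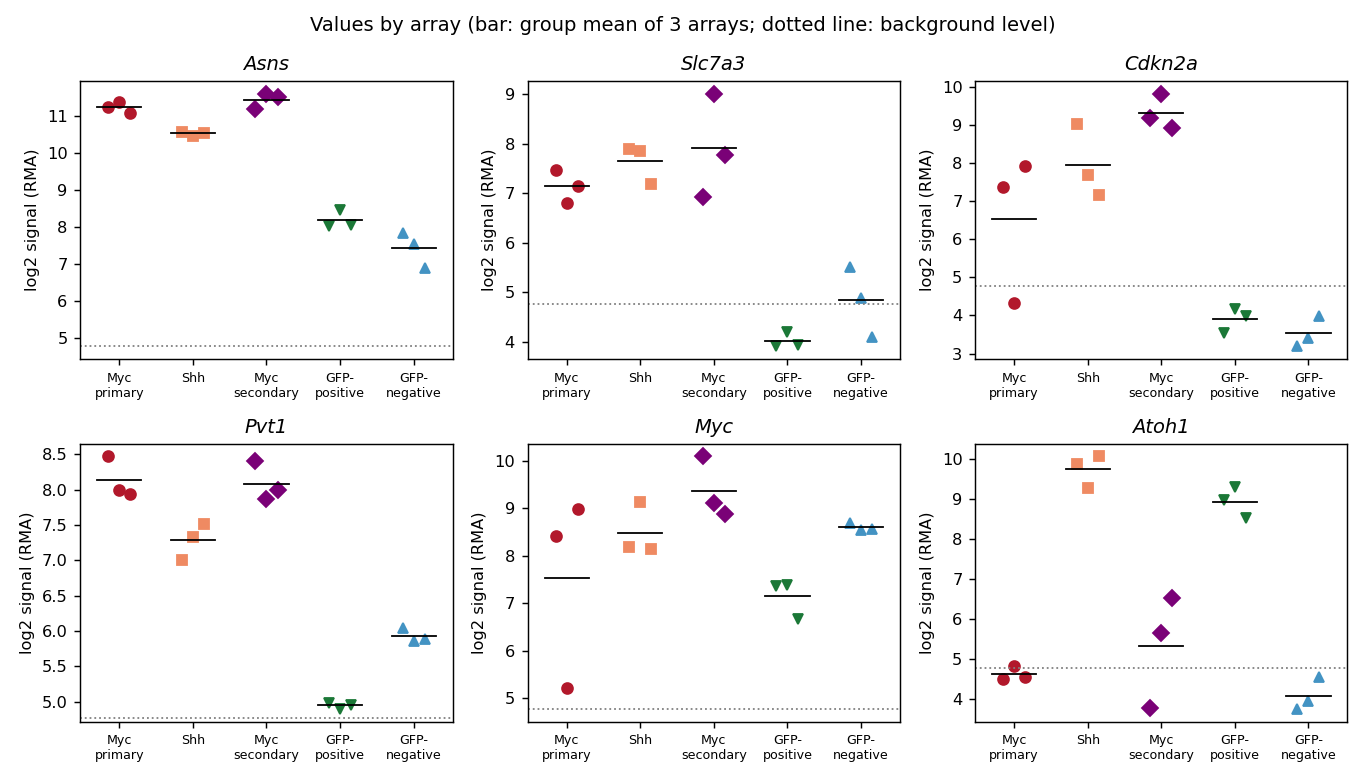
Log2 signal (y axis) of 6 genes by group (x axis), 1 marker per array, with a black bar at the mean of 3 arrays and a dotted line at the background of 4.77. Asns, Slc7a3, Pvt1 and Cdkn2a separate the 9 tumours from the 6 sorted-cell arrays, while Myc and Atoh1 overlap between them; Cdkn2a is at 4.34 in 1 Myc primary tumour and at 7.17 to 9.83 in the other 8 tumours.

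Cdkn2a, whose locus encodes the Cdk inhibitor Ink4a and the p53 activator Arf, had the largest average rise of all list members. It read 4.34, 7.92 and 9.83 in tumours, against 3.19, 3.76 and 4.17 in sorted cells, with all 6 sorted-cell arrays below background. Taken against the background level, it was at least 9.0-fold higher in the mean of the tumour groups and at least 3.42-fold in the lowest of them. The measured difference was 4.22 ± 0.48 (limma, adjusted p = 2.5e-05). Myc primary 2 at 4.34 was also below background, and the shared call was missed (adjusted p = 0.29). The arrays did not overlap all the same. The G1 list, Cdkn2a included, went both ways, with 6 of 16 rising and 5 falling. Rb1, the retinoblastoma protein that Cdks inactivate, fell by 1.19 ± 0.17 and read higher in Shh than in Myc tumours.

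Of 22 replication genes 17 rose and none fell (median 0.78), led by Cdt1, which licenses origins, at 1.05 ± 0.08 and Orc6, of the origin recognition complex, at 0.82 ± 0.11. Of 18 mitosis genes 5 rose, 2 fell and 11 were not called (median 0.35), beside 18.8% of all genes rising and 15.2% falling. Kif20a, a kinesin of cell division, rose by 1.22 ± 0.20, and Cdk1, the kinase that starts mitosis, by 0.59 ± 0.10. Both lists set tumours apart mainly from GFP-negative cells. Against these, 16 to 18 of 22 replication genes were called higher in each tumour group and 10 to 12 of 18 mitosis genes; against GFP-positive cells, 4 replication genes were called higher and 1 lower in Myc primary tumours, none either way in Shh tumours, and 7 higher and 1 lower in Myc secondary tumours. Of the mitosis genes, none was called higher than in GFP-positive cells and 4 lower in Myc primary tumours, none higher and 1 lower in Shh tumours, and 2 higher and 4 lower in Myc secondary tumours. No mitosis gene had the shared call, and none separated all tumours from all sorted cells.

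The lists of damage, death and chromatin genes are read beside 18.8% of all genes rising and 15.2% falling, and several of their shares lie near these. Homologous recombination and checkpoint genes rose in 3 of 11, including Exo1, an exonuclease of repair (1.34 ± 0.18), and Fancd2, of crosslink repair (1.07 ± 0.16). Of 16 p53 targets 7 rose and 2 fell (median 0.51), with Aen, an apoptosis nuclease, at 1.08 ± 0.19 and Sesn1, a stress sensor, at 0.68 ± 0.11. Among 11 regulators of apoptosis Bid, a link from death receptors to mitochondria, rose by 1.63 ± 0.28, while 5 fell, among them Casp8, the caspase of death receptors, by 1.31 ± 0.17. Of 10 Polycomb and DNA methylation genes 5 rose and 2 fell. Dnmt3b, a DNA methyltransferase, rose by 0.82 ± 0.15 and Bmi1, of Polycomb complex 1, by 0.64 ± 0.13. With the group as a random block, each of the genes named here lost its call, with adjusted p-values from 0.058 for Fancd2 to 0.21 for Dnmt3b (limma).

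Glycolysis and hypoxia genes rose in 12 of 20 with none falling (median 0.90), beside 18.8% of all genes rising. Among them were Pkm, pyruvate kinase, at 1.19 ± 0.13 and Ldha, lactate dehydrogenase, at 1.21 ± 0.14. The rise of this list stood in the Myc tumours. Over GFP-positive cells 17 of 20 were called higher in Myc primary and 15 in Myc secondary tumours, but 1 in Shh tumours. Over GFP-negative cells the numbers were 12 and 10, while in Shh tumours 1 was higher and 6 were lower. Ldha averaged 12.67 ± 0.15 in Myc primary, 11.03 ± 0.23 in Shh and 12.72 ± 0.49 in Myc secondary tumours, against 10.58 ± 0.17 in GFP-positive and 11.27 ± 0.09 in GFP-negative cells.

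**Figure D4:**
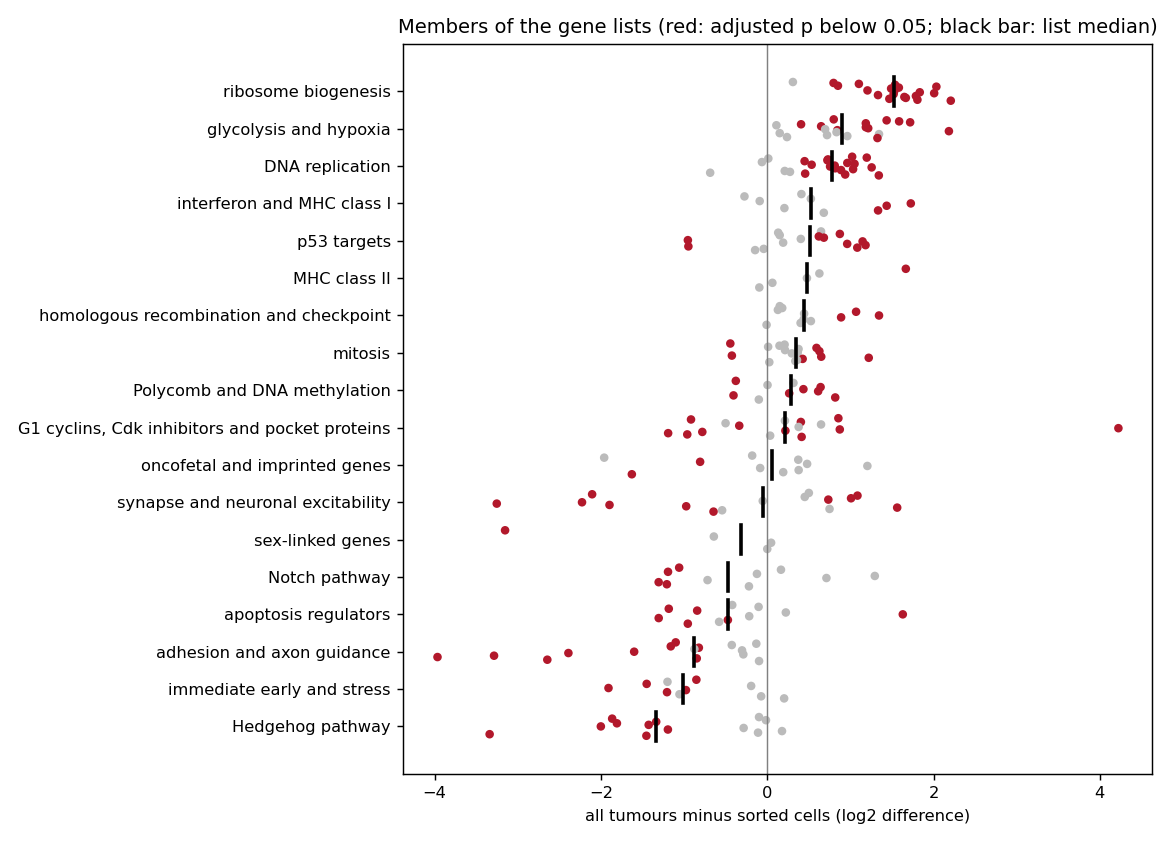
Difference of all tumours from sorted cells (x axis, log2) for each measured member of 18 gene lists (rows), in red where the adjusted p was below 0.05, with a black bar at the list median. Ribosome biogenesis has the highest median, 1.53, and the Hedgehog pathway the lowest, -1.34; the points of most other lists lie on both sides of 0.

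The largest shared fall was that of Tfap2b. Tfap2b, a transcription factor of inhibitory lineages, read 3.19, 3.41 and 3.71 in tumours, against 8.34, 9.70 and 10.94 in sorted cells. No tumour array was above background, so the fall was at least 29.3-fold, with a measured difference of -6.21 ± 0.20 (adjusted p = 1.7e-09, smallest of 6 differences -5.35). Gad1, the enzyme that makes the transmitter GABA, read 3.35, 3.57 and 3.83 in tumours and 7.69, 9.04 and 9.77 in sorted cells, at least 16.8-fold lower in tumours; its second probe set fell by 1.85. Tfap2a, related to Tfap2b, was at least 13.7-fold lower and Lhx5, a homeobox factor of Purkinje cell precursors, at least 6.28-fold lower. Slc32a1, which loads GABA into vesicles, was at least 2.04-fold lower, although its second probe set differed by 0.04 without a call. In bulk RNA, fewer cells of a type and less RNA per cell cannot be told apart.

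The 2 sorted populations held these genes at unequal levels. Ptf1a, the factor that sets the inhibitory fate, averaged 3.97 ± 0.14, 4.10 ± 0.00 and 4.19 ± 0.15 in Myc primary, Shh and Myc secondary tumours, against 5.92 ± 0.53 in GFP-positive and 10.88 ± 0.31 in GFP-negative cells. Neurog2, a proneural factor, read 3.39 to 4.29 in tumours, against 5.33 to 6.35 on the GFP-positive and 9.49 to 10.08 on the GFP-negative arrays. Against the background level, Ptf1a was at least 12.4-fold and Neurog2 at least 8.36-fold lower in tumours than the mean of the sorted groups. From GFP-positive cells alone these folds were at least 2.22 and 2.03. Neurog1, its relative, averaged 3.31 to 3.42 in the tumour groups, against 4.79 ± 0.34 in GFP-positive cells, next to background, and 7.20 ± 0.28 in GFP-negative cells. Gad1, in contrast, was 9.28 ± 0.43 in GFP-positive and 8.39 ± 0.73 in GFP-negative cells. GFP-positive cells, sorted for the reporter of an excitatory lineage, thus carried Gad1, Tfap2b and Lhx5 well above background.

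Of 12 measured GABAergic and Purkinje cell markers, 7 fell, 1 rose and 4 were not called. Shared falls were 5 of the 12, beside 0.129% of all genes. On 6 all tumour arrays lay below all sorted-cell arrays, beside 1.28% of all genes. The median of these markers was -0.88, beside 0.02 over all genes and 15.2% of all genes falling. Of 15 measured inhibitory fate factors, a list made after the leading genes were seen, 10 fell, 1 rose and 4 were not called (median -2.63). Lbx1, a homeobox factor of inhibitory neurons in the hindbrain and spinal cord, was at least 4.08-fold lower in tumours.

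Among the other shared falls were genes of the neuronal surface and synapse and secreted proteins. Chl1, an adhesion molecule of the L1 family, read 3.33, 3.77 and 5.03 in tumours, against 6.86, 8.59 and 9.97 in sorted cells, and fell by 4.53 ± 0.16; of its 4 probe sets, 2 near background did not differ. Nrxn3, a presynaptic adhesion molecule, read 3.75, 4.38 and 6.39 in tumours and 7.83, 8.42 and 8.90 in sorted cells. It fell by 3.59 ± 0.22 and was 1.51 higher in Shh than in Myc tumours. Megf11, a receptor that spaces neurons in the mouse retina, fell by 3.23 ± 0.17, and St8sia2, which adds polysialic acid to neural adhesion molecules, by 2.52 ± 0.18. Masp1, a complement-type protease, was at least 4.41-fold lower, Adamts18, a matrix protease, fell by 2.45 ± 0.15, and Crtac1, a secreted neuronal protein, was at least 2.38-fold lower. From GFP-positive cells alone, the fall of Crtac1 was at least 1.41-fold. Syn2, a synaptic vesicle protein, fell by 1.77 ± 0.16. Grm3, a glutamate receptor, was at least 8.06-fold lower in tumours and Wnt5a, a secreted signal of axon growth, fell by 3.02 ± 0.10, and both were far lower in GFP-positive cells (5.07 ± 0.14 and 6.16 ± 0.31) than in GFP-negative cells (10.49 ± 0.55 and 9.10 ± 0.15). Set against GFP-positive cells alone, Grm3 was at least 1.24-fold lower in tumours.

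Across adhesion and axon guidance genes 9 of 15 fell and none rose (median -0.88), beside 15.2% of all genes falling. Dcc, the netrin receptor, fell by 3.29 ± 0.22, but read 10.88, 11.20 and 10.93 in the 3 Shh tumours and averaged 6.99 ± 0.43 and 6.65 ± 0.86 in Myc primary and secondary tumours, against 11.80 ± 0.05 in GFP-positive and 11.21 ± 0.23 in GFP-negative cells. Nrcam, an adhesion molecule of axons, fell by 2.65 ± 0.19 without overlap. Hedgehog pathway genes fell in 8 of 13 with none rising (median -1.34), again beside 15.2% of all genes falling. In Shh tumours their median difference was -0.03 against GFP-negative and 0.08 against GFP-positive cells, and in the Myc groups it was -1.17 to -1.85 against either population. Gli1, the target that reports pathway activity, averaged 9.34 ± 0.27 in Shh tumours and 3.57 ± 0.10 and 4.10 ± 0.38 in Myc primary and secondary tumours, against 7.95 ± 0.27 in GFP-positive and 6.46 to 7.59 in GFP-negative cells. Ptch1, the receptor that restrains the pathway, lay below all 6 sorted-cell arrays (10.30 to 11.05) on the 9 tumour arrays (4.56 to 10.15), and fell by 1.87 ± 0.57. Its Shh arrays read 9.90, 7.03 and 4.56, and only the pairs with Shh tumours were called; in the 4 pairs with Myc tumours the adjusted p was 0.26 to 0.68 (limma). Gli3, the pathway's repressor, read lower in tumours by 2.0 log2, with a call, while its second probe set, below background, differed by 0.04. Atoh1 showed no averaged difference (0.05 ± 0.33, adjusted p = 0.93), at 9.74 ± 0.41 in Shh and 8.92 ± 0.39 in GFP-positive arrays.

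Markers of other cell types lay mostly between the 2 sorted populations. Of 14 microglial and macrophage markers, 5 fell on average and none rose, yet all 14 were called lower than GFP-negative cells in each tumour group, and 7, 7 and 11 were called higher than GFP-positive cells in Myc primary, Shh and Myc secondary tumours. Their median deviation from the mean of the 5 groups was -0.86 to 0.88 in tumours, against -2.18 to -2.06 in GFP-positive and 3.11 to 4.30 in GFP-negative cells. P2ry12, a receptor of resident microglia, read below background on all 9 tumour arrays and all 3 GFP-positive arrays. The summed signal of this list was 10.2 to 11.8 log2 in tumours and 7.90 to 15.2 in sorted cells.

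**Figure D5:**
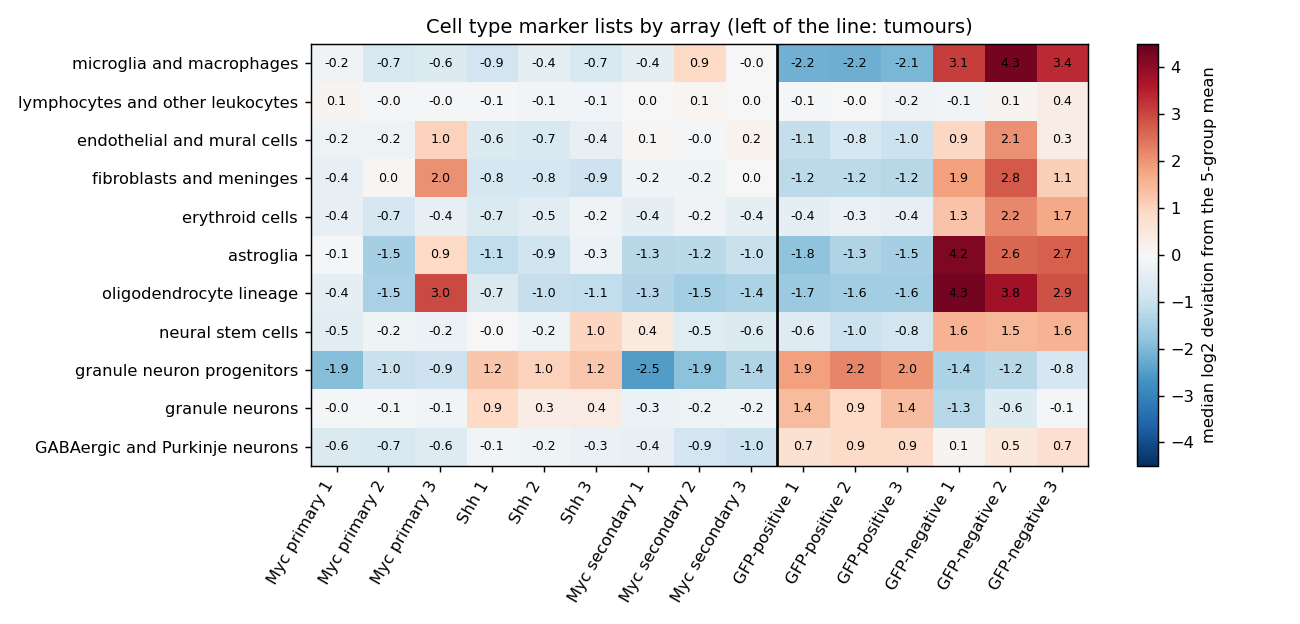
Median deviation of each cell type's marker list from the mean of the 5 groups (colour and printed number, log2) by array (columns, tumours left of the line). GFP-negative arrays stand out for microglia (3.1 to 4.3), astroglia (2.6 to 4.2) and the oligodendrocyte lineage (2.9 to 4.3), Myc primary 3 for the oligodendrocyte lineage (3.0) and fibroblasts (2.0), and the inhibitory neuron markers are lower on all tumour arrays than on any sorted-cell array.

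The same held for glia. Astroglial markers fell in 8 of 13 and oligodendrocyte markers in 6 of 10, with none rising in either; Gdf10, of Bergmann glia, fell by 3.84 ± 0.26 and Mag, of myelin, by 1.97 ± 0.52. Their averaged falls rest on GFP-negative cells: the median difference of astroglial markers was -3.05 to -4.34 against GFP-negative and 0.05 to 1.09 against GFP-positive cells. Endothelial and mural markers rose in 2 of 13 and fell in 2, beside 18.8% of all genes rising and 15.2% falling. The 2 that rose, Acta2, of smooth muscle (2.49 ± 0.42), and Rgs5, of pericytes (2.09 ± 0.42), differed in their pairs. Acta2 was called higher than either sorted population in both Myc groups and in no pair of the Shh tumours, whereas Rgs5 was called higher than GFP-positive cells in all 3 tumour groups and not called against GFP-negative cells. The other probe sets of Rgs5 differed by 0.68 to 1.24 without a call. Fibroblast, leukocyte and erythroid lists had 2 of 10, 1 of 8 and 2 of 3 members falling and none rising, beside the same shares. No marker of these lists was a shared rise or fall. The part of such cells in the shared genes was not tested. Myc primary 3, GFP-negative 3 and Myc secondary 1 were the arrays that stood apart. Without them, 34 of the 35 shared rises and 19 of the 22 shared falls were still called as shared. Those genes were picked by the same call from these arrays, and GFP-negative 1 and 2 stayed in. The count thus does not bear on the part of such cells.

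Neuronal and stem cell lists had calls in both directions, and are read beside 18.8% of all genes rising and 15.2% falling. Of 9 neural stem cell markers 3 rose and 3 fell, and Lhx2, a homeobox factor of early brain, was the 1 member without overlap, at 5.89, 7.33 and 9.22 in tumours, against 3.48, 4.78 and 5.76 in sorted cells (2.84 ± 0.33). Of 6 granule progenitor markers 1 rose and 4 fell, and against GFP-positive cells their median was -3.12 and -4.00 in Myc primary and secondary and -0.19 in Shh tumours. Granule neuron markers had 3 of 13 up and 3 down, near the shares of all genes, and synaptic genes had 4 of 15 up and 6 down. Gria1, an AMPA receptor subunit, was at least 4.59-fold lower in tumours on average, but its 3 GFP-positive arrays, at 3.54 to 3.65, lay below background as the 9 tumours did. Notch genes fell in 4 of 10 and immediate early genes in 5 of 10, with none rising, beside 15.2% of all genes falling. Against GFP-negative cells the median of Notch genes was -1.93 in Myc primary, -0.74 in Shh and -1.63 in Myc secondary tumours, and against GFP-positive cells it was 0.82, 0.06 and 0.66. Immediate early genes had medians of -2.05, -0.76 and -2.68 against GFP-negative and of -0.65, 1.08 and -1.01 against GFP-positive cells in the same order of tumours. Hes5, a Notch target, fell by 1.31 ± 0.21 and Dusp1, an immediate early phosphatase, by 1.21 ± 0.27. Interferon and MHC class I genes rose in 3 of 9, among them the antiviral genes Oasl2 (1.33 ± 0.17) and Ifit3 (1.44 ± 0.27). Both were below background on all 6 sorted-cell arrays, and so at least 1.01-fold and 1.61-fold higher in the mean of the tumour groups. The lowest tumour group mean was below background for each. Over GFP-positive cells 6, 6 and 1 of the 9 were called higher in Myc primary, Shh and Myc secondary tumours, and none lower. Against GFP-negative cells 1, 3 and 0 were called higher and 0, 1 and 4 lower. MHC class II genes rose in 1 of 5, H2-Aa at 1.67 ± 0.36. Of 10 oncofetal and imprinted genes Hmga2, a chromatin protein, fell by 0.81 ± 0.13 and Meg3, a noncoding RNA, by 1.63 ± 0.48. Xist, the RNA of the inactive X, fell by 3.15 ± 1.14 on average, and the sex of the mice is not labelled. None of the measured sex-linked genes was called in any of the 6 pairs. Xist lost its averaged call with the runs of title numbers as a term (limma, adjusted p = 0.13) and with the random block (limma, adjusted p = 0.44).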

How the data were processed

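Gene expression was measured on 15 arrays, 9 of tumours and 6 of sorted cells. The deposited values are log2 signals that the authors made with RMA in Partek 6.5, per the submitters' processing notes. The members, the lists and the comparison were chosen with earlier results of these data known. Of 45141 probe sets, 104 were controls, 15588 had no listed gene and 551 had several; 28898 had 1 gene, with 28689 updated to current symbols by gene identifier and 209 keeping the listed one. Each of 17097 genes took its probe set with the highest mean signal (7180 had more than 1). No column was left unmapped.

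A one-way model of the 5 groups was fitted in limma 3.58.1 (R 4.3.3, statmod 1.5.0) to the values as deposited. Tumours minus sorted cells was the mean of 3 tumour group means minus that of 2 sorted group means, with 10 residual degrees of freedom and Benjamini-Hochberg adjustment over all genes. Standard errors are those of the fit. The shared call took the largest of 6 pairwise p-values where all 6 differences had one sign. Where all arrays of one side were below background, the background level stood in for that side and the fold is given as at least its value. The other side entered as the mean of its groups, so the fold for a single group can be smaller. Named genes were the 15 largest rises and 15 largest falls by the smallest of the 6 differences among shared genes without overlap, 8 set genes (the deleted Cdkn2c and Trp53, the lineage factor Atoh1, the Hedgehog targets Gli1 and Ptch1, and the family of Myc, Mycn and Mycl) and up to 2 called genes of each list; other named genes, and 5 lists, were chosen after their values were seen. Alternatives covered scaling, probe set choice, a filter on dim genes (3.70 log2), weights, runs of title numbers, the unit of replication and left-out arrays. The script was tested on simulated data. Figures used Python 3.11.15 with numpy 2.4.6, pandas 2.3.3 and matplotlib 3.10.9.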

Additional observations from a re-analysis of the deposited data

Results flagged for a closer look

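Shh tumours and the mean of the 2 Myc groups differed at 57 named genes, some of them given only here, each by a limma test of that difference (adjusted p below 0.05). Groups of 3 arrays are too small for a check on single outlying arrays. All differences here are log2, Shh tumours minus Myc tumours, on the brightest probe set of each gene; the tumour group means of Cdkn2c, Chl1 and Gria1 were all below background, so their differences are not measured levels.

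Among leading shared rises, Shh tumours were lower at Asns (-0.81), Eif4ebp1 (-1.22), Smyd2 (-0.77), Pvt1 (-0.83), Deptor (-0.75) and Dctd (-1.96). Lower too were genes of polyamines and ribosome production, Srm (-1.57), Polr1a (-1.18), Ppan (-0.56), Nop56 (-0.65), Nhp2 (-0.95), Utp4 (-1.53) and Nop14 (-1.27). In nucleotide, glycine and mitochondrial genes the differences were Shmt2 (-0.90), Ctps (-0.35), Prps1 (-0.95), Cad (-1.0), Chchd4 (-2.03), Hspa9 (-0.87) and Mrpl12 (-1.12). Cell cycle, damage and methylation genes were lower at Kif20a (-0.79), Cdt1 (-0.69), Sesn1 (-1.14), Aen (-0.99), Exo1 (-0.72), Fancd2 (-0.73), Bid (-1.31) and Dnmt3b (-1.04). So were the glycolytic, mural and remaining genes Pkm (-1.22), Ldha (-1.67), Acta2 (-2.60), Rgs5 (-2.23), Ptch1 (-2.40) and Cdkn2c (-0.43).

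Shh tumours were higher at the family, pathway and granule lineage genes Mycn (6.00), Mycl (1.63), Atoh1 (4.77), Gli1 (5.50), Zic2 (1.80), Etv1 (3.12) and Rbfox3 (1.14). Another probe set of Mycn had the opposite order, at 4.29 in Shh and 13.14 and 13.05 in Myc primary and secondary tumours. Shh tumours were higher at the adhesion, guidance and synaptic genes Chl1 (0.90), Nrxn3 (1.51), Wnt5a (0.95), Dcc (4.18), Nrcam (2.14), Gria1 (0.50) and Cplx2 (2.10). They were also higher at Gdf10 (2.28), Lhx2 (2.33), Rb1 (1.48), Hey1 (2.40), Oasl2 (2.13), Dusp1 (1.19), Jun (2.33), Bmi1 (0.56) and Ddit3 (1.36).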

How the results depend on the processing

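No paired analysis was possible because the labels give no replicate numbers. The numbers of genes higher and lower in tumours over sorted cells, 3211 and 2596, were 5140 and 4017 over single probe sets and 1961 and 865 with no group terms. They were 655 and 192 with the group as a random block, and 0 and 0 with the 5 group means as units in limma, where 1358 and 485 had an unadjusted p below 0.05. They were 2689 and 3337 after cyclic loess and 3545 and 2162 with arrays centred on their median gene; the median of all genes was then -0.01 and 0.08. Leaving out 1 array gave 2729 to 3579 and 2151 to 2920. The 35 shared rises became 13 when arrays were centred, 211 with array weights, 114 without Myc primary 3, GFP-negative 3 and Myc secondary 1, 897 without the Shh arrays, 191 where each of 6 adjusted p-values was asked to pass, and 0 with the runs of title numbers as a term (limma, 96 unadjusted). The 22 shared falls became 60 with array weights, 36 without those 3 arrays, 369 without the Shh arrays, 71 by the 6 adjusted p-values and 8 with the run term. Leaving out 1 array gave 7 to 73 and 13 to 29. Genes without overlap, 780 above and 218 below, were 396 above when arrays were centred, 383 below after cyclic loess, 367 below without the 3 arrays, and 1776 and 858 without the Shh arrays; single arrays left out gave 786 to 919 and 222 to 300. Without arrays or groups there are fewer values to separate; the causes of the other shifts were not tested.

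Of 4828 alternative values of the named genes and lists, 4412 kept direction and side of the threshold, 294 lost the call, 89 moved, 10 gained the call and 23 changed sign. With the group means as units 104 named genes lost their call, the 30 leading genes included, and 50 did with the random block and 31 with no group terms. Of all 1020 alternative values of those 30 leading genes, 985 kept direction and call. Those 30 were picked by the shared call from the same arrays, so the 985 are no separate support. Another probe set of the gene turned the sign for Chl1 (0.047), Slc32a1 (0.044), Crtac1 (0.24), Mycn (6.08), Ptch1 (0.19), Acta2 (-0.042), Cdt1 (-0.046), Rb1 (0.010), Gli3 (0.037) and Atf4 (0.091). The mean of probe sets gave 0.43 for Mycn. The earlier run of title numbers alone gave -0.61 for Myc, -0.83 for Rgs5, 0.042 for Atf4 and 0.43 for Ddit3. Atoh1 was -0.052 after cyclic loess, -1.43 in the later run alone, -1.54 without the Shh arrays, and -0.15 to 0.31 with 1 array left out.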

Other observations

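The 3 probe sets of Mycn went apart in the Myc tumours. One was bright only there, at 13.14 ± 0.22 in Myc primary, 4.29 ± 0.15 in Shh and 13.05 ± 0.18 in Myc secondary tumours, against 4.19 ± 0.16 in GFP-positive and 3.98 ± 0.06 in GFP-negative cells (SD, n = 3 each). Another read 5.20 ± 0.12, 8.76 ± 0.23 and 5.33 ± 0.33 in those tumour groups, against 8.67 ± 0.35 and 7.08 ± 0.20 in the sorted cells. The probe set used above had the order of the second.

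Called genes were unevenly spread over chromosomes. On chromosome 14, 5.46% of 604 genes were higher and 24.2% lower in tumours, and on chromosome 16 the shares were 6.69% and 26.8% of 568 genes. On the other chromosomes 12.9% to 25.2% were higher and 11.7% to 19.1% lower.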
